A study of Mus musculus with 2 samples.

Results

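The interferon-induced transmembrane (Ifitm) family was examined in 2 RNA sequencing libraries of cells sorted as aerobic from subcutaneous Lewis lung carcinoma (LLC), a transplantable mouse lung tumor. Its 6 members, Ifitm1, Ifitm2, Ifitm3, Ifitm5, Ifitm6 and Ifitm7, were found by gene symbol among 22886 genes, and each had 1 line in both libraries. The family itself was chosen from the RPKM values of these same libraries, so the levels are described without a test. The tumor-bearing mice were wild type C57BL/6, and 1 library came from mice injected with vehicle and 1 from mice injected with clodronate, a drug used to deplete macrophages. All of the sorted cells shared the strain, the genotype and the tumor model, and age, dose, time and the number of mice pooled were not stated. A growth protocol in the labels names EML cells, a blood progenitor line, which conflicts with the other labels.

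IFITM proteins are small membrane proteins that share a CD225 domain. They sit in the plasma membrane and in endosomal membranes, where several of them block the fusion of enveloped viruses such as influenza virus with the cell. Interferon binds its receptor, activates STAT transcription factors, and thereby induces Ifitm1, Ifitm2 and Ifitm3, which many cell types also express at a basal level. Ifitm5, also called Bril, is known from bone-forming osteoblasts, and Ifitm3 was first described in mouse as fragilis, a gene of primordial germ cells.

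Because Ifitm3 and Ifitm2 are the most abundant members and Ifitm6 and Ifitm1 differed most between the libraries, the promoters of these 4 genes are shown. The sequences are those of RefSeq on GRCm38.p6, 5′ to 3′ in the direction of the gene, from 250 bases before to 50 bases after its annotated start. All 6 members had such a promoter. Capitals mark matches, on either strand, to the core of the interferon-stimulated response element (ISRE), GAAANNGAAA, which factors activated by type I interferon bind, or to the gamma-activated site (GAS), TTCNNNGAA, a STAT dimer site.
Ifitm3, chr7:141010695-141010994, minus strand: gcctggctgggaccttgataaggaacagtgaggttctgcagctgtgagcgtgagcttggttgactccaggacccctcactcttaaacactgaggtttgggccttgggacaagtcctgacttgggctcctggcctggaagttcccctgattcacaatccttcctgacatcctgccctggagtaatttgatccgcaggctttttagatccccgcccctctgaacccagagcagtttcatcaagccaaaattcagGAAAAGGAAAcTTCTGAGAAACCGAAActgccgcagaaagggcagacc
Ifitm2, chr7:140955912-140956211, minus strand: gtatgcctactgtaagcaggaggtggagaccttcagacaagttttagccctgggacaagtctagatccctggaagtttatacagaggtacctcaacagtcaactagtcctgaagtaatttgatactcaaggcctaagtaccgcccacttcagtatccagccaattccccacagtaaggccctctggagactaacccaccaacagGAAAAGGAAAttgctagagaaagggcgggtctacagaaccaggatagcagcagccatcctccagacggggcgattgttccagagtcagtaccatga
Ifitm6, chr7:141016843-141017142, minus strand: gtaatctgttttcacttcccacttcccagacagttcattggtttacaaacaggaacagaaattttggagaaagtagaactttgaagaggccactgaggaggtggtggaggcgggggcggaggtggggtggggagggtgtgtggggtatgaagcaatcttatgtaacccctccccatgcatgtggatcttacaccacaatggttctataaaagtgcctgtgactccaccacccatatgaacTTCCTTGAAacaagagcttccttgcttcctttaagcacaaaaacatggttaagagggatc
Ifitm1, chr7:140967826-140968125, plus strand: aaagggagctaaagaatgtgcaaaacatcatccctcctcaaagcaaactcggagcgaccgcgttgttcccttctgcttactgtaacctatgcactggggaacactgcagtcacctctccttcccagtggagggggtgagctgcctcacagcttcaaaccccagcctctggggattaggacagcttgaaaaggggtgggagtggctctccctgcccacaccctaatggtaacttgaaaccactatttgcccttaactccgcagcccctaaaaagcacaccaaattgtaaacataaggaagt

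The Ifitm3 window held 2 ISRE matches, beginning at bases 3 and 20 after the annotated start, and 1 GAS match beginning at base 14, whose end overlaps the second ISRE match. The Ifitm2 window held 1 ISRE match, which began at base -46 and has the same bases, GAAAAGGAAA, as the first match of Ifitm3. Ifitm6 had no ISRE match and 1 GAS match, beginning at base -10. Ifitm1, Ifitm5 and Ifitm7 had neither motif in their windows, and no member had the PU.1 core GAGGAAGT, the site of a macrophage transcription factor. Of 32851 promoters of this length, 3.44% held the ISRE core, 8.30% the GAS motif and 3.20% the PU.1 core on either strand. These matches describe letters in the windows and do not show binding.

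The values were RPKM, reads scaled to transcript length and library size, so levels may be compared between genes. The files give no read totals. Loci with the smallest values fell on steps, and a line fitted over transcript length to 19 loci taken to hold 1 fragment put the depth at about 13800000 fragments for the vehicle library and 11200000 for the clodronate library. Fragment numbers given for a gene are estimates from this fit. Their intervals and the intervals of ratios are exact 95% intervals for counting error alone, without the error of the fit. The fit used transcripts of at least 1200 nt, whereas those of the members have 655 to 882 nt. With 1 library per condition the spread between replicates is unknown, and differences are given without p-values. In such sorted bulk samples, fewer cells of a type and less RNA per cell cannot be told apart.

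Ifitm2 and Ifitm3 were among the most abundant transcripts in both libraries, and by listed RPKM their order was opposite in the 2 libraries. Of the 50 nt windows of their transcripts, 22.8% for Ifitm2 and 10.02% for Ifitm3 also occur in other genes. Whether reads from such stretches affect this order was not tested. Ifitm2 had 1199 RPKM in the vehicle library and 1130 RPKM in the clodronate library. Ifitm3 had 861 RPKM in the vehicle library and 1309 RPKM in the clodronate library. Ifitm2 thus stood above Ifitm3 in the vehicle library, by a ratio of 1.39, and below it in the clodronate library, where Ifitm3 stood above Ifitm2 by a ratio of 1.16. Ranked over all genes, Ifitm2 was number 79 in the vehicle and 82 in the clodronate library, and Ifitm3 was number 117 and 69.

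Ifitm3, the member that restricts viruses entering through endosomes, was 1.52-fold higher in the clodronate library. Its estimated 6012 fragments in the vehicle and 7456 in the clodronate library gave a counting interval of 1.47 to 1.57 for this ratio. Ifitm2, its close paralog, had a clodronate over vehicle ratio of 0.943, with a counting interval of 0.912 to 0.975 from 7986 and 6148 estimated fragments. The log2 ratio, taken throughout as log2 of clodronate RPKM + 1 over vehicle RPKM + 1, was 0.60 for Ifitm3 and -0.08 for Ifitm2. The direction of Ifitm2 turned, to 0.06, when ratios were corrected for GC content and transcript length, and that of Ifitm3 did not, at 0.86. The difference between the log2 ratios of Ifitm3 and Ifitm2 was 0.69, and 0.80 after that correction. A ratio of both genes within a library does not depend on how the libraries were scaled.

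**Figure D1:**
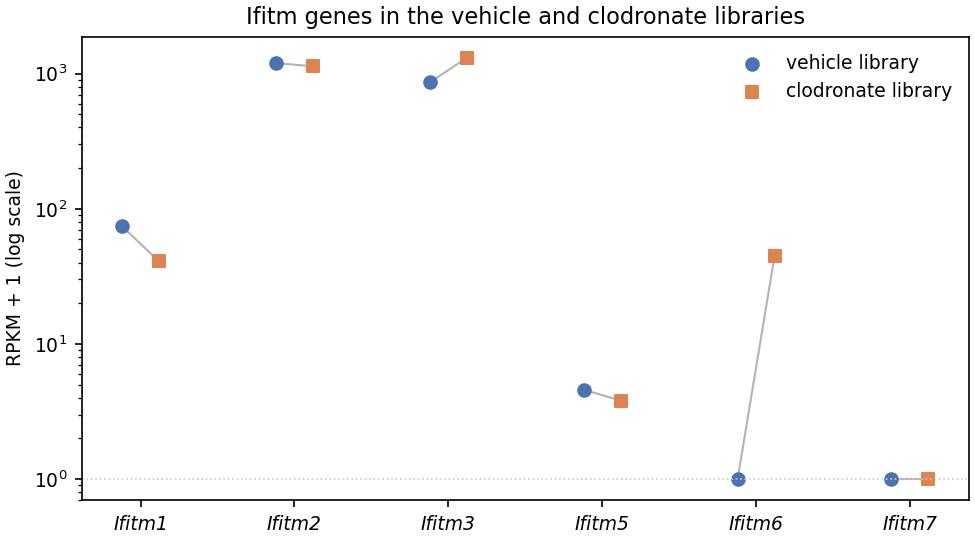
RPKM + 1 on a log axis for the 6 Ifitm genes, with 1 circle for the vehicle library and 1 square for the clodronate library, joined by a line and without error bars because each condition has 1 library. Ifitm2 and Ifitm3 lie between 861 and 1309 RPKM and exchange their order by listed RPKM. Ifitm1 is lower and Ifitm6 higher in the clodronate library, and Ifitm7 is at 0 RPKM in both.

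Ifitm1, which acts mainly at the cell surface, was the third most abundant member in the vehicle library. It had 73.3 RPKM in the vehicle library and 39.9 RPKM in the clodronate library, a vehicle over clodronate ratio of 1.84. The clodronate over vehicle ratio was 0.544 with a counting interval of 0.475 to 0.621, and the log2 ratio was -0.86, or -0.61 once GC content and length were corrected for. Ifitm1 was therefore lower in the library in which Ifitm3 was higher, and the log2 ratios of Ifitm3 and Ifitm1 differed by 1.47. Fibroblast markers were also lower in the clodronate library, 7 of the 8 that averaged 1 RPKM or more. Their summed level over all 10 was 160 RPKM for vehicle and 76.9 RPKM for clodronate. Most of that sum was Dcn, with 77.3 and 28.4 RPKM, and Col3a1, with 62.1 and 34.4 RPKM. Col1a1 was higher, with 2.32 and 5.40 RPKM. None of the 10 was at 0 in both. Germ and pluripotent cell markers summed to 25.1 and 9.58 RPKM. The part of either list in the Ifitm1 values was not tested.

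Ifitm6, which has no human counterpart of that name, was listed at 0 RPKM for vehicle, whereas its level with clodronate was 43.7 RPKM. The clodronate value corresponds to about 242 fragments, with a counting interval of 212 to 274, and placed the gene at rank 1854. At the same level the vehicle library would have held about 296 fragments, and 3 fragments would have given 0.443 RPKM. No fold change is given against a value of 0. An exact 0 in such files can also be a failed estimate, which was not tested here. Ndufaf1, an assembly factor of respiratory complex I, was listed at 0 in the vehicle library too. Of the genes kept, 39 stood at 0 in the vehicle library with at least 10 RPKM in the clodronate library, and 9 the other way round. Of the 39, 2 had a transcript of at least 500 nt, Ifitm6 and Ndufaf1, and Ifitm6 had the higher value of them. Of the 9 in the opposite direction, 2 had a transcript of that length, Gm5176 and 1500012K07Rik, with at most 12.1 RPKM. Those 3 genes were named after their values were seen.

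Monocyte and neutrophil markers were read beside Ifitm6. Of 7 monocyte markers 4 were higher and 3 lower in the clodronate library, and their levels summed to 1688 RPKM for vehicle and 2452 RPKM for clodronate. Most of that sum was Fn1, the gene of fibronectin, with 1530 and 2269 RPKM. Ly6c2 had 13.0 and 23.0 RPKM, whereas Ccr2 had 48.5 and 37.8 RPKM. Of 11 neutrophil markers found, 7 were at 0 in both libraries, among them S100a9, Mpo, Elane and Ngp. Of the 4 others, S100a8 was higher in the clodronate library, with 12.7 RPKM for vehicle and 23.1 RPKM for clodronate. The remaining 3, Csf3r, Cxcr2 and Mmp8, were lower, Csf3r with 26.4 and 19.3 RPKM. With these opposite directions the sum over the list was 46.1 and 46.0 RPKM. The part of these cells in the Ifitm6 values was not tested.

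Ifitm5 and Ifitm7 were at the low end. The levels of Ifitm5 were 3.59 RPKM for vehicle and 2.81 RPKM for clodronate, from about 29 and 19 fragments. Its clodronate over vehicle ratio of 0.784 had a counting interval of 0.415 to 1.45, so that no difference was detectable at this depth. Of 7 osteoblast markers 4 were at 0 in both libraries (Bglap, Sp7, Ibsp and Dmp1), and the list summed to 4.26 and 5.13 RPKM. Ifitm7, the member on chromosome 16, was listed at 0 in both libraries. Its line in the files spans 13981795 to 14101587 on chromosome 16 of mm9 and shares this span with 2900011O08Rik, itself at 0 for vehicle and at 0.537 RPKM for clodronate. Ifitm10, which has the family name but was not among the members, was listed at 0 in both libraries.

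Summed over the 6 members, the family had 2137 RPKM in the vehicle library and 2526 RPKM in the clodronate library, a ratio of 1.18. Ifitm3 made up 40.3% of the sum in the vehicle library and 51.8% in the clodronate library, and Ifitm2 56.1% and 44.8%. Ifitm1 held 3.43% and 1.58%, Ifitm6 0% and 1.73%, and Ifitm5 0.168% and 0.111%. The composition of the family thus shifted from Ifitm2 and Ifitm1 towards Ifitm3 and Ifitm6, while Ifitm2 and Ifitm3 together made up most of it in both libraries.

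Members that averaged 1 RPKM or more numbered 5, and Ifitm7 did not reach it. Of these 5, Ifitm6 alone lay at least 3-fold apart between the libraries on the scale of RPKM + 1, and the other 4 lay within 3-fold. Over all 10982 genes that reached this mean, 5.18% lay at least 3-fold apart, 2.86% higher and 2.32% lower in the clodronate library. In direction, 2 of the 5 members were higher and 3 lower, or 3 higher with the GC and length correction that turned Ifitm2, against 51.6% of all genes higher. Ifitm5 is counted among the lower, although the counting interval of its ratio, 0.415 to 1.45, spans 1. The median log2 ratio of the 5 members was -0.08 and that of all genes was 0.02, and 95% of all genes lay between -1.55 and 1.66. Ifitm6 entered this filter through the clodronate library alone.

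**Figure D2:**
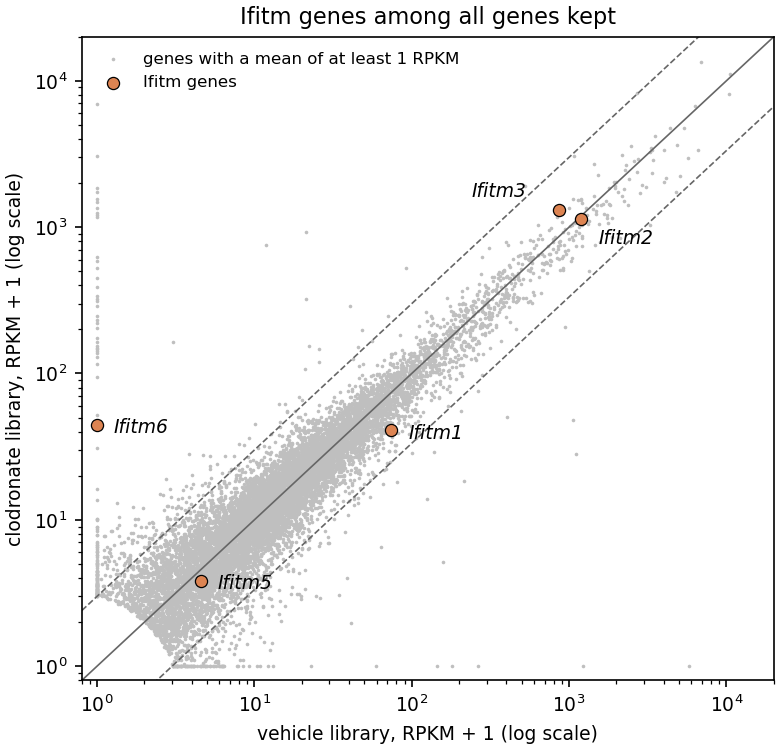
RPKM + 1 in the vehicle library (x axis) against the clodronate library (y axis), both on log axes, for 10982 genes that averaged 1 RPKM or more in grey and the 5 Ifitm genes that reached it in orange. The solid line marks equal values and the dashed lines a 3-fold difference; Ifitm6 alone among the members lies outside the dashed lines, at 0 RPKM in the vehicle library.

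Of the 6 members, 5 share a genomic neighbourhood, and Ifitm7 lies on another chromosome. On mm9, the build named in the submitters' notes, Ifitm5, Ifitm2, Ifitm1, Ifitm3 and Ifitm6 follow each other on chromosome 7 from 148134861 to 148202791, a span of 67931 nt. Ifitm5 lies at 148134861 to 148136138 and Ifitm2 at 148140738 to 148141860. Ifitm1, the gene on the opposite strand, lies at 148153328 to 148155726, and Ifitm3 at 148195489 to 148196643 is separated from it by 39762 nt. Ifitm6, at 148201711 to 148202791, begins 5067 nt beyond Ifitm3.

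The genes flanking the cluster had lower levels than Ifitm1, Ifitm2 and Ifitm3 in both libraries, but Athl1 stood above Ifitm5. Athl1, next to Ifitm5, had 11.6 RPKM for vehicle and 10.6 RPKM for clodronate, Nlrp6, an innate immune sensor, 0 and 0.147 RPKM, and BC024386 2.26 and 0.756 RPKM. On the side of Ifitm6, B4galnt4 and Pkp3 were listed at 0 in both libraries and Sigirr, a receptor that dampens interleukin signals, had 1.58 and 0.896 RPKM. None of these 6 genes was higher by more than 1 RPKM in the clodronate library.

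**Figure D3:**
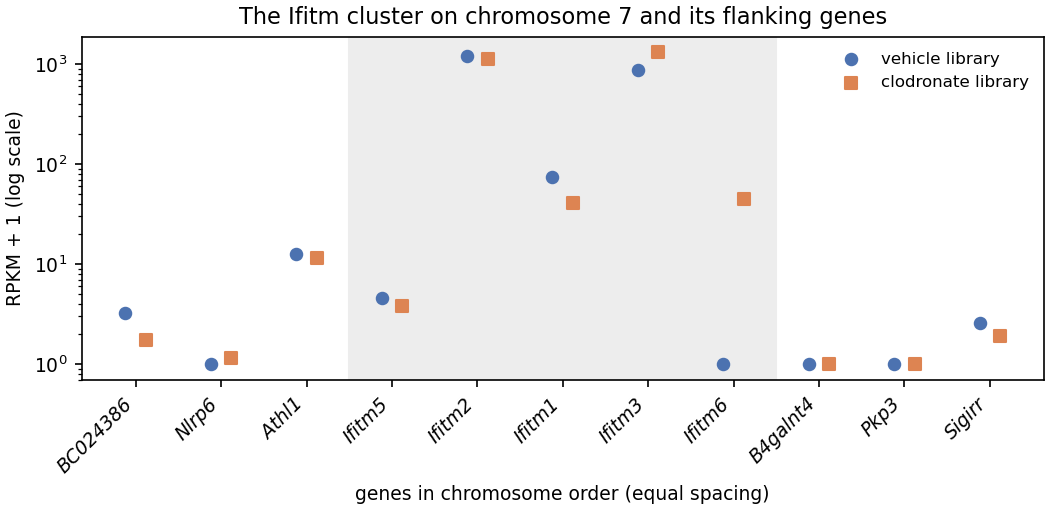
RPKM + 1 on a log axis for the 5 Ifitm genes on chromosome 7 (shaded) and the 3 genes on each side, in chromosome order with equal spacing, with circles for the vehicle and squares for the clodronate library. Levels of Ifitm2 and Ifitm3 lie between 861 and 1309 RPKM, and the flanking genes have at most 11.6 RPKM.

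Because members resemble each other, the share of each transcript that occurs in another gene was counted in the GENCODE M21 transcripts, without genes that overlap the member. In windows of 50 nt, Ifitm2 shared 22.8% with other genes, mainly the processed pseudogenes Gm11951 and Gm8865, Ifitm3 shared 10.02% and Ifitm1 6.36%. In windows of 100 nt these shares were 4.68%, 0% and 0%. Ifitm5, Ifitm6 and Ifitm7 shared no window of either length. Reads from the shared stretches could have been assigned to another copy, so the levels of Ifitm1, Ifitm2 and Ifitm3 are uncertain. By how much was not measured. The transcript Gm45717 overlaps both Ifitm5 and Ifitm2 on the same strand, and its reads cannot be told apart from theirs where they overlap.

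The interferon pathway around the family was read from its ligands to its effectors. Of 11 interferon genes, 9 were listed at 0 in both libraries, among them Ifnb1 and Ifna4. Ifnk was at 0 for vehicle and 5.91 RPKM for clodronate, and Ifng, type II interferon, was at 2.75 RPKM for vehicle and 0 for clodronate. The receptor genes were present in both. Ifnar1, a chain of the type I receptor, had 46.2 and 50.3 RPKM, and Ifngr1, a chain of the type II receptor, had 102 and 95.9 RPKM. Of 16 receptor and signalling genes that averaged 1 RPKM or more, 10 were higher and 6 lower in the clodronate library, and 1, Irf7, a factor that amplifies the type I response, was at least 3-fold higher. Stat2, a transcription factor of the type I response, had 20.4 and 32.4 RPKM, and its partner Irf9 had 23.6 and 30.3 RPKM.

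The list of antiviral effectors was chosen with earlier results of these data known, so its values are a description and no test. Of 30 such genes that interferon induces, 26 were higher and 4 lower in the clodronate library, against 51.6% of all genes higher. At least 3-fold higher were 9 of the 30, against 2.86% of all genes. The median log2 ratio of the list was 1.12 over the 29 genes above 0 in both libraries, against 0.02 over all genes. Rtp4 had 4.18 and 26.3 RPKM, Bst2, which tethers budding virus, 45.4 and 111 RPKM, and Ifi27l2a 278 and 625 RPKM. Ifitm3 had a lower log2 ratio than 21 of the 30, Ifitm2 than 28, and Ifitm1 than all 30. In level, Ifitm2 and Ifitm3 stood above all 30 effectors in both libraries, and the effector nearest to them, Ly6e, a surface protein that affects virus entry, had 560 and 817 RPKM. Of 21 effectors with a promoter in the RefSeq table, 11 held the ISRE core. Among the members, Ifitm3 and Ifitm2 held it.

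**Figure D4:**
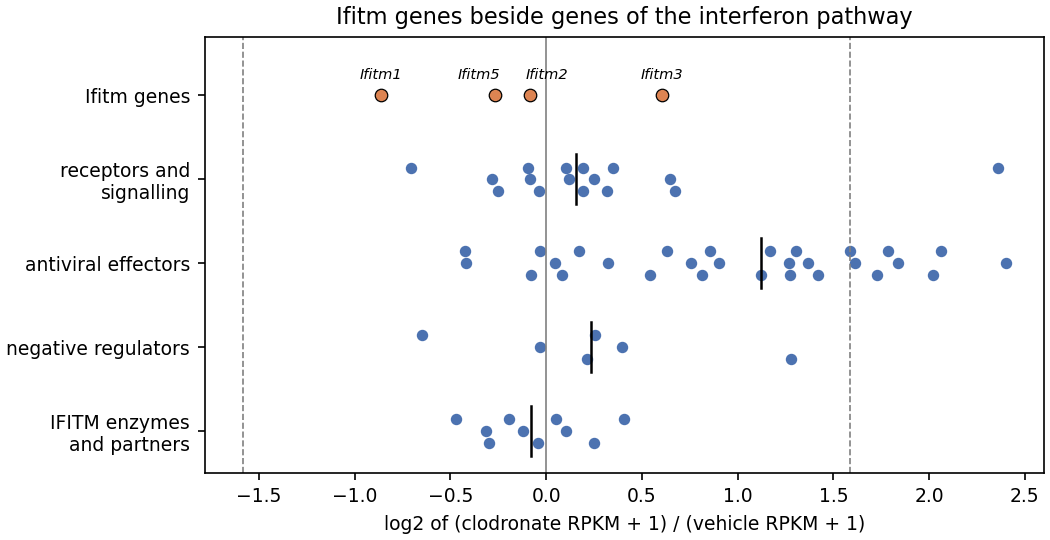
Log2 of clodronate RPKM + 1 over vehicle RPKM + 1 (x axis) for 4 Ifitm genes (orange, named) and for 4 gene lists (blue points, 1 per gene; black bars, list medians), with genes at 0 in a library left out and points spread vertically for visibility only. Dashed lines mark a 3-fold difference; the antiviral effectors lie mostly to the right of 0 with a median of 1.12, whereas Ifitm1, Ifitm5 and Ifitm2 lie to the left, Ifitm2 by an amount that turned when GC content and length were corrected for, and Ifitm3 lies at 0.60.

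Genes that restrain interferon signalling were mixed. Of 6, 4 were higher and 2 lower in the clodronate library and none was at least 3-fold apart on the scale of RPKM + 1. Usp18, which blocks the type I receptor, had 12.8 and 12.5 RPKM, and Socs1 had 0.714 and 3.15 RPKM, a ratio of 4.42 without the added 1. Of the enzymes and partners of IFITM proteins, 4 of the 10 that averaged 1 RPKM or more were higher and 6 lower, with a median log2 ratio of -0.08 and a range from -0.47 to 0.41. Zdhhc20, a palmitoyltransferase that modifies IFITM3, had 22.1 and 19.2 RPKM. The tetraspanin Cd81, a partner of IFITM1 at the cell surface, had 146 and 157 RPKM, while Cr2, a complement receptor, was listed at 0 in both. Of 7 other genes with a CD225 domain, 5 were at 0 in both, and Prrt1 came highest with 1.01 RPKM for vehicle.

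The labelled cells were checked against markers. All 10 macrophage markers averaged 1 RPKM or more, with sums of 21307 RPKM for vehicle and 20816 RPKM for clodronate, 7 of them higher and 3 lower with clodronate. Lyz2 had the highest level of the 10, with 10534 and 11189 RPKM. The 3 lower were C1qc, with 3984 and 2043 RPKM, Adgre1, with 357 and 261 RPKM, and Mertk. Both libraries were thus rich in macrophage transcripts although the labels speak of tumor cells, and the 8 epithelial markers summed to 15.8 and 11.4 RPKM, with Epcam at 0 in both. T and NK cell markers summed to 11.7 and 21.5 RPKM over 9 genes, with Cd3e and Cd3g at 0 in both, B cell markers to 2.99 and 1.74 RPKM, and endothelial markers to 2.37 and 7.87 RPKM. Among the T and NK cell markers, Cd2 had 2.39 and 11.1 RPKM and Il7r had 8.16 and 8.40 RPKM. Germ and pluripotent cell markers, cells in which Ifitm1 and Ifitm3 are also known, summed to 25.1 and 9.58 RPKM, with Pou5f1, Dazl and Ddx4 at 0 in both. The other 3, Dppa3, Nanog and Prdm1, were lower in the clodronate library, Dppa3 with 10.4 and 1.59 RPKM.

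The genes nearest to each abundant member over the 2 libraries, by Euclidean distance on log2 of RPKM + 1, were listed for description. For Ifitm3 they were Mt1, a metallothionein, with 841 and 1166 RPKM, Lgmn, a lysosomal protease, with 1005 and 1355 RPKM, and Anxa2, an annexin, with 899 and 1088 RPKM. For Ifitm2 they were LOC547349, Atp5k and Wfdc17, at distances from 0.128 to 0.158. For Ifitm1 they were Trappc4, Ndufa1 and Prdx4, at distances from 0.021 to 0.059. For Ifitm6 they were the small nucleolar RNA genes Snora44, Snora16a and Snord15b, which were likewise listed at 0 in the vehicle library. With 2 libraries, likeness says only that a pair of values is close.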

How the data were processed

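RNA of 2 libraries, 1 per condition, was analysed from the RPKM values the authors deposited for 23170 loci, with identifiers of the form Cufflinks writes. The submitters' processing notes name CASAVA 1.8.2, TopHat2 2.0.9, Bowtie 0.12.9, Cufflinks 2.2.1, Cuffdiff and the build mm9, without their roles. Annotation release, strandedness, read length and filters are not given in the sources used here. Since RPKM are scaled values, they entered no model made for counts. Where 26 symbols had become numbers, the RefSeq accession was used. Lines of 1 symbol were summed. Starts of loci, which count from 0, were raised by 1.

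Log2 ratios used a pseudocount of 1, which understates changes of low genes, and genes averaging 1 RPKM or more were kept. A 3-fold threshold described differences. Depth was estimated from 49 loci below 0.5 RPKM in both libraries that shared a vehicle over clodronate ratio of 0.816 within 0.1%. Of these, 19 with a transcript of at least 1200 nt formed the lowest step, and a Theil-Sen line of 1/RPKM over length gave the fragments per library (95% intervals from the slope, 13300000 to 13900000 and 10900000 to 11300000) and a length offset of 171 nt. Among loci with under 4.5 estimated fragments, 81.5% of vehicle and 80.2% of clodronate values lay within 0.15 of a whole number. Transcript lengths came from GENCODE M21 (GRCm38) by RefSeq accession, found for 98.7% of the genes kept, and coordinates of mm9 and GRCm38 were never combined.

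The members, the gene lists and the tests were chosen with earlier results of these data known. Named genes were the members, genes of the lists, the 3 flanking genes on each side, and the 3 genes nearest to each member among those averaging 10 RPKM or more. The lists held 165 symbols, of which 163 were found, 2 of them (Adgre1 as Emr1, Trarg1 as Tusc5) under older symbols. As alternatives, the pseudocount was set to 0.1, and the filter was dropped or raised to a mean of 5 RPKM. Others were centring, upper-quartile scaling, a 2-fold threshold, the highest line of each symbol, a correction for GC content and length in 10 bins each, and leaving out small RNA loci. Of the steps, the fold calls and the depth fit were tested on simulated data. Python 3.11.15, numpy 2.4.6, pandas 2.3.3, scipy 1.17.1 and matplotlib 3.10.9 were used. Results for some genes are withheld from the text and not reported here.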

Additional observations from a re-analysis of the deposited data

How the results depend on the processing

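No paired analysis was possible because vehicle and clodronate are represented by a single library each. Under all 9 alternatives 1 member, Ifitm6, lay past the threshold. With 0 RPKM for vehicle and 43.7 RPKM for clodronate, none of these settings could have brought Ifitm6 within it. Its place past the threshold is therefore no check of the result. The median log2 ratio of the members kept was -0.042 with no filter (6 members), 0.26 when kept genes averaged 5 RPKM or more (4 members), -0.10 after centring, -0.15 after upper-quartile scaling and 0.056 once GC content and length were corrected for. In the last it is the value of Ifitm2, whose direction turned there. Ifitm3 kept its direction with log2 ratios from 0.54 to 0.86, Ifitm1 from -0.92 to -0.61 and Ifitm5 from -0.34 to -0.19. The filter settings, the 2-fold threshold, the highest line and the removal of small RNA loci cannot change a member's own ratio. Under them the kept direction was fixed in advance and is no check. For Ifitm5 the counting interval of the ratio, 0.415 to 1.45, spans 1. Over all genes 569 lay at least 3-fold apart, 1012 with a pseudocount of 0.1 (532 higher, 480 lower), 228 among genes averaging 5 RPKM or more (127 and 101) and 1507 at 2-fold (763 and 744). These 3 settings change by construction how many genes can pass. With GC content and length corrected, 312 genes were higher and 197 lower, against 314 and 255. The fragment numbers rest on an estimated depth, and a value of 0 was not read as absence.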

Other observations

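Genes whose promoter holds the ISRE core were compared with the rest as a description. Of 328 such genes that averaged 1 RPKM or more, which include Ifitm2 and Ifitm3, the median log2 ratio was 0.01 and 3.05% were at least 3-fold higher in the clodronate library. Of 8038 genes with a promoter but no match, the median was 0.02 and 2.29% were at least 3-fold higher. Ifitm2 with 1 match had -0.08 and Ifitm3 with 2 matches had 0.60.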
